A study of Mus musculus with 2 samples.

Results

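The cells described here were islet barcodes rich in transcripts of Rgs5, Acta2 and related genes, the population that holds pericytes, smooth muscle cells and, by the name used for it in islet studies, quiescent stellate cells. They were chosen by their own measured transcripts. A barcode was taken when at least 500 genes were detected, at most 10% of its unique molecular identifiers (UMIs, which count each captured transcript once) were mitochondrial, the islet hormone genes Ins1, Ins2, Gcg, Sst, Ppy, Pyy and Iapp together made up less than 10% of UMIs, and Rgs5, Acta2, Tagln, Myl9, Higd1b and Ndufa4l2 together made up at least 0.5%. Genes of 3 other lineages each had to stay below 0.3%, namely Dcn, Lum and Clec3b of fibroblasts, C1qa, C1qb and C1qc of macrophages, and Plvap, Esm1, Emcn, Flt1 and Kdr of endothelium. This gave 560 of 15081 barcodes, called Rgs5/Acta2 barcodes or members below. The levels of these rule genes chose the members and are given as a description.

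Pancreatic islet cells came from Wildtype (WT) mice and from Ghrelin knockout (GKO) littermates of the C57BL/6N strain, which carried the GKO1 line's deletion of ghrelin on both alleles, at 8 weeks of age and on chow. Islets of 4 mice per genotype were pooled, handpicked, dispersed and sorted for live cells, and the 3′ ends of transcripts were profiled in droplets as 1 library per genotype. With 1 library each, genotype cannot be told apart from pool, islet preparation or library, no test was made, and every interval given is an exact 95% interval for counting error only. The ghrelin deletion was germ line and was not directed at any islet cell type.

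The WT library held 7792 barcodes and 158067110 UMIs, and the GKO library held 7289 barcodes and 103511757 UMIs. Of the barcodes within the quality limits, 202 of 7100 in WT (2.85%, interval 2.47% to 3.26%) and 358 of 6346 in GKO (5.64%, 5.09% to 6.24%) were members. Both shares were lower at a limit of 5% mitochondrial UMIs, as given in the last section. Taken over barcodes with less than 10% hormone UMIs, the share was 13.4% in WT (11.8% to 15.3%) and 15.8% in GKO (14.4% to 17.4%), and these intervals overlap. A share of captured barcodes depends on sorting and on how many endocrine cells were recovered, and their part in it was not tested. Members carried a median of 4607 UMIs in WT and 4709 in GKO, and their summed UMIs were 1043077 and 1923691. The 2 libraries shared 18 barcode sequences, none of them among the members.

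The lower limit fell in a sparse range of the data. The member nearest to it in WT had 0.517% of its UMIs in the 6 genes, and the nearest barcode outside had 0.384%. In GKO these values were 0.659% and 0.312%. Between 0.25% and 0.5% there were 2 barcodes in WT and 1 in GKO. The limit on fibroblast genes removed 17 otherwise eligible barcodes in WT and 92 in GKO, the endothelial limit removed 13 and 9, and the macrophage limit removed 1 and 3. At least 3 of the 5 marker genes Rgs5, Acta2, Tagln, Myh11 and Higd1b were detected in 93.6% of WT and 94.4% of GKO members.

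As a check of the genotype labels, Ghrl, which encodes ghrelin, had 43634 UMIs in the whole WT library and 280 in the whole GKO library. Among members it had 3 UMIs in WT, in 3 cells, and 0 in GKO, where 3 counts would be 1.56 counts per 1000000 UMIs (CPM). The ghrelin receptor gene Ghsr had 0 UMIs in members of both libraries.

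Pericytes and vascular smooth muscle cells wrap capillaries and arterioles and set vessel width by contracting through actin and myosin. Their contraction is held in balance by calcium stores, potassium channels and receptors for vasoconstrictors, and endothelial platelet-derived growth factor and Notch ligands keep them attached to the vessel. Pancreatic stellate cells store retinoids in lipid droplets while quiescent and turn into matrix-producing myofibroblasts when activated. In islets, pericytes control capillary blood flow and contribute to the basement membrane.

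Promoters of 3 genes of the rule are shown because Rgs5 led most members, Acta2 led the others, and Myl9, the regulatory light chain of myosin, was the single one of the 3 rule genes that matched a RefSeq window to hold the exact element searched for. Each sequence is the 250 bases before the RefSeq transcription start (GRCm38.p6), 5′ to 3′ on the gene's strand, and capitals mark a CArG box, the element bound by serum response factor, the regulator of smooth muscle genes that works with the coactivator myocardin. Rgs5 lies at chr1:169655251-169655500 on the plus strand, Acta2 at chr19:34255374-34255623 on the minus strand and Myl9 at chr2:156775214-156775463 on the plus strand.
Rgs5: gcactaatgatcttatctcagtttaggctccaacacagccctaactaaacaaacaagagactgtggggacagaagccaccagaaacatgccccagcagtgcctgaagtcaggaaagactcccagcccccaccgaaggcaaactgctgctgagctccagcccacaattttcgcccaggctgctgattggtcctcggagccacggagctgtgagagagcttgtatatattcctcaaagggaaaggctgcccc
Acta2: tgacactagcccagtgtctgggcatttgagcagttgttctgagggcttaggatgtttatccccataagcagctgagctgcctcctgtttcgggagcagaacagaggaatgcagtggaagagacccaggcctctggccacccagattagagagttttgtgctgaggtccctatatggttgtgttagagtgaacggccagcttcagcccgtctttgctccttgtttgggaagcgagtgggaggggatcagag
Myl9: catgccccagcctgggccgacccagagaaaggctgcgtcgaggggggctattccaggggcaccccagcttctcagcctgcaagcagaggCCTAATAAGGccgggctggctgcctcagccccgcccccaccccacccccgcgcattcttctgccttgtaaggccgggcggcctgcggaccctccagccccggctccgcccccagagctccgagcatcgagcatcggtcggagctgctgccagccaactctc
The box in Myl9, CCTAATAAGG, ran from 161 to 152 bases before the start. The search asked for its exact form, CC and GG on either side of 6 bases that are each A or T, and this form was in neither the Rgs5 nor the Acta2 window. With 1 base allowed to differ, a search added after the data were seen, the Acta2 window held CCCTATATGG, from 84 to 75 bases before the start, and CCTTGTTTGG, from 34 to 25 bases before it. Myl9 then held CCTTGTAAGG as well and Rgs5 none, and 21.1% of all windows held such a match. The windows searched for these counts ran 50 bases past the start and were thus 300 bases long. Over all such RefSeq windows, searched on both strands, 535 of 32851 (1.63%) held an exact CArG box and 2097 (6.38%) held GTGGGAA, the core letters bound by the nuclear partner of Notch, and neither motif contains the other. Of the list of contractile genes described below, 21 of 24 matched a window, 0 held a CArG box and 2 (Actn1 and Csrp1) held GTGGGAA. Of the pericyte list, 12 of 16 matched, 1 (Trpc6) held a CArG box and 2 (Ebf1 and Ano1) held GTGGGAA. Such matches are letters in a short window only.

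**Figure D1:**
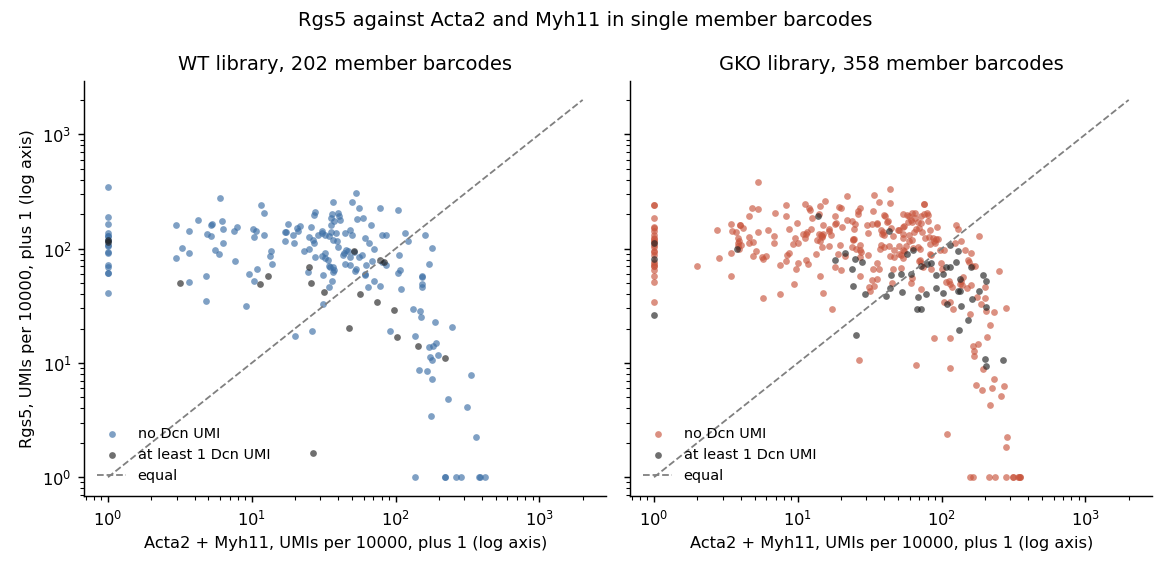
Rgs5 (vertical, log axis) against the sum of Acta2 and Myh11 (horizontal, log axis) in UMIs per 10000 UMIs plus 1, with 1 point per member barcode in the WT and GKO libraries, the dashed line marking equal levels and black points marking barcodes with a Dcn UMI. The 143 WT and 249 GKO points above the line are Rgs5-led, the 59 and 108 below it are Myh11/Acta2-led, and points run across the line without a gap.

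The genes of the rule and the markers were spread widely among members. Rgs5, a regulator that shortens G protein signaling, ran from 0 through a median of 86.8 to 343 UMIs per 10000 in single WT members and from 0 through 94.5 to 380 in GKO. Acta2, smooth muscle actin, had a WT median of 25.6 with a highest value of 366, and a GKO median of 31.9 with a highest value of 330.0. Most members held transcripts of both programs. UMIs of Rgs5 together with UMIs of Acta2 or Myh11 were found in 86.6% of WT members and 89.4% of GKO members.

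The members carried Rgs5, Pdgfrb and Sparc, the markers by which the study names quiescent stellate cells. Sparc, a matrix-binding glycoprotein, stood at 4153 and 4276 CPM in WT and GKO members, and Pdgfrb and Rgs5 are given with other genes below. Some other genes tied to stellate cells were at 0 or below their level in another kind of barcode. Lrat, the enzyme that makes stored retinyl esters, and Gfap, a filament gene used as a stellate marker, had 0 UMIs in members of both libraries. Plin2, a lipid droplet coat gene, stood at 86.3 CPM in WT and 79.5 CPM in GKO members, below the highest of the other kinds of barcode, at 603 and 499.7 CPM. Fabp4, a fatty acid carrier, stood at 200.4 and 165 CPM against 2036 and 2203 CPM. Of the 8 quiescent stellate genes with enough UMIs, 3 were at least 2-fold above every other kind in both libraries, against 8.66% of all genes compared in that way, among them Pdgfrb and Des, which are also pericyte and muscle genes. The members are called by their leading genes here.

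Which genes set the members apart was examined by summing UMIs over all members of a library and over 4 other kinds of barcode chosen by like rules. These were activated stellate barcodes, with at least 0.5% of UMIs in the fibroblast genes (236 in WT and 592 in GKO), endothelial barcodes (548 and 422), macrophage barcodes (191 and 443) and endocrine barcodes with at least 25% hormone UMIs (4942 and 3383). Sums were scaled to CPM. Of 2943 genes with enough UMIs, 255 (8.66%) were at least 2-fold higher in members than in each of the other kinds in both libraries. Every gene of the selected barcodes is tied to the selection, so these counts describe the members and test nothing.

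The 15 genes farthest above all other kinds included genes of calcium stores, receptors and metabolic genes. Pln, phospholamban, which restrains the calcium pump of the sarcoplasmic reticulum, stood at 204 CPM in WT and 225 CPM in GKO members and at no more than 0.442 and 0.584 CPM elsewhere. Casq2, calsequestrin, which buffers calcium inside that store, stood at 550 and 495 CPM, and at no more than 3.54 and 3.12 CPM elsewhere. P2rx1, the ATP-gated channel through which sympathetic nerves contract arterioles, stood at 98.8 and 58.2 CPM. Each was close to absent from the other kinds. Gpr20, an orphan receptor, stood at 86.3 and 88.9 CPM and Olfr558, an olfactory receptor gene also used by vascular muscle, at 426 and 419 CPM, with at most 5.75 CPM in any other kind. Cox4i2, the oxygen-sensitive form of a cytochrome c oxidase subunit, stood at 954 and 925 CPM against at most 25.8 and 30.6 CPM, and Slc2a4, the insulin-responsive glucose transporter, at 78.6 and 93.6 CPM. The other leading genes were Slc38a11, an amino acid transporter, Nrip2, Ephx3, Nrgn, a calmodulin-binding protein, Cspg4, the NG2 proteoglycan of pericytes, Map3k7cl, Sbspon and Gm13861, between 74.8 and 422 CPM in members.

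**Figure D2:**
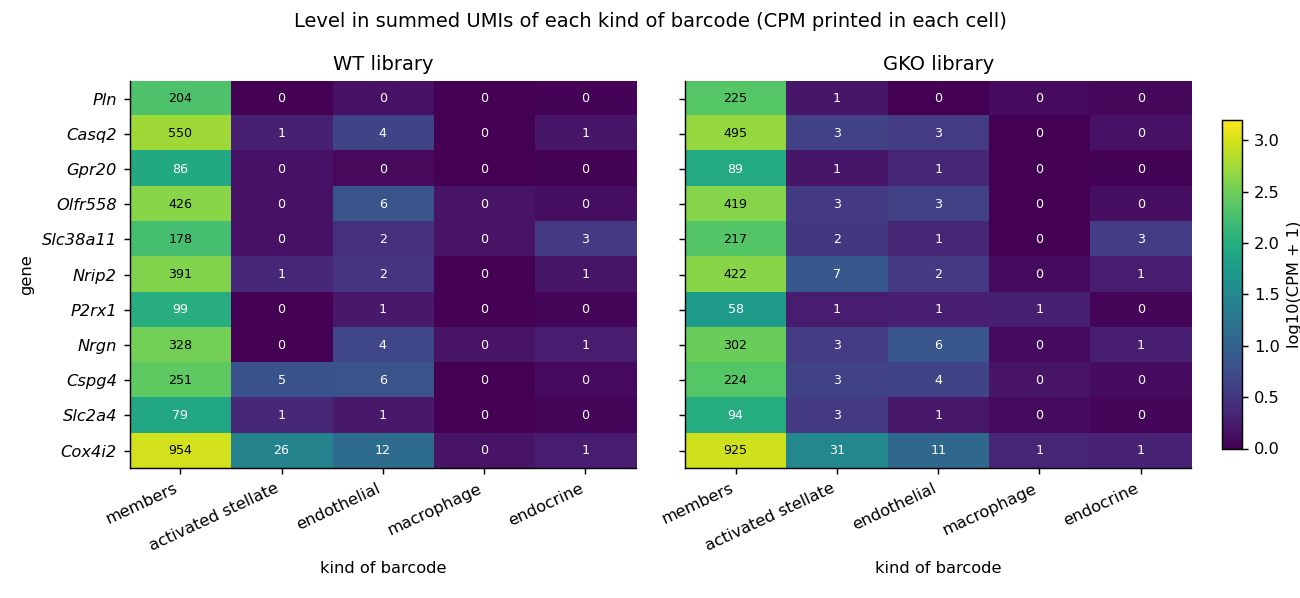
Level of 11 genes (rows) in summed UMIs of members and of 4 other kinds of barcode (columns) in the WT and GKO libraries, colored by log10 of CPM plus 1, with CPM printed in each cell. The members column ranges from 58 CPM to 954 CPM, and no other cell exceeds 31 CPM.

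The leading genes differed in how many members held them. A Cox4i2 UMI was found in 94.6% of WT and 90.5% of GKO members. In macrophage barcodes, which should lack it and which had deeper medians of 10192 and 8843 UMIs, the shares were 0.524% and 1.13%. After each cell was thinned to 2000 UMIs, leaving out 4 WT and 9 GKO members, the Cox4i2 shares in members were 81.8% and 73.6%. Olfr558 was found in 70.3% and 73.5% of members before thinning and in 50.0% and 52.4% after it. Others were found in a minority. Before thinning, Slc2a4 was found in 30.7% of WT and 35.8% of GKO members, Gpr20 in 30.2% and 31.6%, Sbspon in 24.3% and 23.7%, Pln in 20.8% and 20.9%, and P2rx1 in 11.9% and 12.3%.

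By role, most pericyte and contractile genes were set apart, and the counts called in this and the following lists stand beside 8.66% over all genes. Of 14 pericyte genes with enough UMIs, 12 were at least 2-fold above all other kinds, among them Pdgfrb, the receptor for the endothelial growth factor that recruits pericytes, at 530 CPM in WT and 513 CPM in GKO members against at most 101 and 92.4 CPM. Notch3, the Notch receptor of mural cells, stood at 629 and 621 CPM against at most 32.6 and 37.6 CPM. Gucy1a3 and Gucy1b3, both subunits of the guanylate cyclase that senses nitric oxide, stood at 671 and 615 CPM in WT and at 770 and 662 CPM in GKO. Of the contractile list, 17 of 20 genes were set apart, including Lmod1, a nucleator of actin filaments, at 407 and 453 CPM against at most 18.1 and 28.6 CPM.

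Ligands, receptors and channels of the vessel wall were set apart in part. In the vascular signalling list 8 of 14 genes were called, and these were the ligands Pdgfa, Angpt1 and Jag1, the receptors Pdgfrb, Notch3, S1pr3 and Ednra, and the Notch target Heyl. Angpt1, which steadies vessels through the endothelial receptor Tek, stood at 71.9 CPM in WT and 80.6 CPM in GKO. Among vasoactive and hormone receptors 5 of 7 were called. Npy1r, the receptor for neuropeptide Y that constricts vessels, stood at 380 and 294 CPM against at most 10.9 and 16.8 CPM, and Ednra, the endothelin receptor of muscle, at 266 and 209 CPM against at most 23.6 and 21.6 CPM. The other 3 were Agtr1a, the angiotensin receptor, Adra2a, an adrenergic receptor, and P2rx1. Ednrb, the other endothelin receptor, was lower in members than in endothelial barcodes, at 405 and 335 CPM against 655 and 582 CPM. Some receptors for islet and gut hormones were not detectable at this depth. Glp1r, Gcgr, Sstr1, Sstr2 and Sstr4 had 0 UMIs in members of both libraries, as had Adra2c, Mas1 and Htr2b, where 3 counts would be 2.88 CPM in WT and 1.56 CPM in GKO. Of the ion channel and calcium list 8 of 12 were called, among them Kcna5, a voltage-gated potassium channel, and Ano1, the calcium-activated chloride channel that depolarizes muscle.

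Among transcription factors, 7 of 12 were called, namely Tbx2, Tbx3, Foxs1, Ebf1, Ebf2, Heyl and Nr2f2. Tbx2 stood at 270 and 296 CPM, and Nr2f2 at 683 and 626 CPM. Ebf1 stood at 812 CPM in WT and 853 CPM in GKO members against at most 308 and 366 CPM. Tbx18, Foxd1, Nkx3-2, Wt1 and Zic1, used as markers of mural, stromal or mesothelial origin in other organs, had 0 UMIs in both libraries. Matrix genes were not set apart. None of 9 basement membrane genes with enough UMIs was called, and Sparc stood at 10802 and 10254 CPM in the highest other kind, above its level in members. None of the activated stellate genes was called either.

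Members were then divided by whether Rgs5 or the sum of Acta2 and Myh11 had more UMIs. In WT 143 members (70.8%, 64.0% to 77.0%) were Rgs5-led and 59 (29.2%) were Myh11/Acta2-led. In GKO 249 (69.6%, 64.5% to 74.3%) were Rgs5-led, 108 (30.2%) were Myh11/Acta2-led and 1 was a tie. The shares of the 2 libraries had overlapping intervals. It is a boundary drawn through a range, since 44 WT members (21.8%) and 80 GKO members (22.3%) lay within 2-fold of it. Myh11/Acta2-led members had more UMIs, with medians of 5927 in WT and 6398.5 in GKO against 4290 and 4278, and a higher median mitochondrial share, at 6.25% and 6.16% against 4.95% and 5.17%.

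The genes that define the division differed as they had to and are given as a description. Rgs5 stood at 11838 CPM in WT and 13005 CPM in GKO Rgs5-led sums, and at 2541 and 3624 CPM in Myh11/Acta2-led sums. Acta2 stood at 2198 and 2332 CPM in Rgs5-led and at 13628 and 12679 CPM in Myh11/Acta2-led sums. Rgs5 was thus still present on the muscle side, and Acta2 on the Rgs5 side. Tagln, an actin-binding protein of smooth muscle that the division did not use, followed Acta2, with a log2 ratio of Rgs5-led to Myh11/Acta2-led of −2.35 in WT and −2.16 in GKO. Higd1b, a mitochondrial gene of the hypoxia-inducible domain family, followed Rgs5, with ratios of 1.67 and 1.49.

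Across 3293 genes with enough UMIs, 108 (3.28%) were at least 2-fold higher in Rgs5-led members in both libraries and 145 (4.4%) were at least 2-fold higher in Myh11/Acta2-led members. The median log2 ratio over all genes was 0.04 in WT and 0.08 in GKO. The division is drawn on the same cells, so none of these genes is a test of it. The 2 libraries are separate pools and gave each ratio once each.

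Mgp and Steap4 were among the genes that led on the Rgs5 side. Mgp, matrix Gla protein, an inhibitor of calcification, stood at 6010 CPM against 1042 CPM in WT and at 8394 CPM against 647 CPM in GKO. Its log2 ratio was 2.53 (2.38 to 2.68) in WT and 3.70 (3.57 to 3.83) in GKO. An Mgp UMI was found in 86.7% of WT and 88.8% of GKO Rgs5-led members, in 23.7% and 27.8% of Myh11/Acta2-led members, and in 6.57% and 5.69% of endothelial barcodes at median depths of 6823 and 7275 UMIs. After thinning to 2000 UMIs the shares were 82.7% and 88.4% on the Rgs5 side and 16.9% and 20.6% on the muscle side. Steap4, a metalloreductase, stood at 322 CPM against 35.8 CPM in WT and at 388 CPM against 29.4 CPM in GKO. Both genes were several-fold higher on the Rgs5 side in both libraries.

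Receptor and channel genes of the Rgs5 side included parts of 1 potassium channel. Abcc9, the regulatory subunit of the vascular ATP-sensitive potassium channel, stood at 267 against 46.0 CPM in WT and at 259 against 40.9 CPM in GKO (log2 ratios 2.54 and 2.66). Kcnj8, its pore subunit, stood at 103 against 15.3 CPM and at 162 against 37.1 CPM (2.75 and 2.13). Htr1b, a serotonin receptor, had 35 UMIs against 1 in WT and 66 against 3 in GKO. Ednrb stood at 559 against 148 CPM in WT and at 526 against 57.5 CPM in GKO, and Agtr1a at 193 against 40.9 CPM and 202 against 60.1 CPM. The further leading genes were Pla1a, a phospholipase, Col4a4, a basement membrane collagen chain, Plxdc1 and Plxdc2, Art3, Mapt, which encodes tau, and Gm26802.

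Genes of the contractile apparatus led on the other side. Cnn1, calponin, had 92 UMIs in WT and 140 in GKO Myh11/Acta2-led members and 0 in Rgs5-led members of both libraries. Pln stood at 536 CPM against 4.61 CPM in WT and at 527 CPM against 18.5 CPM in GKO. Actg2, the gamma actin of visceral muscle, stood at 388 against 1.54 CPM and at 304 against 7.92 CPM, and P2rx1 at 258 against 3.07 CPM and 139 against 0.880 CPM. These genes were close to absent on the Rgs5 side. A Pln UMI was found in 67.8% of WT and 60.2% of GKO Myh11/Acta2-led members, against 1.40% and 4.02% of Rgs5-led members. Rergl, a small GTPase of the Ras family, had 78 UMIs against 1 in WT and 52 against 0 in GKO. The other leading genes were Tcap, which caps titin in muscle, Asb2, a ubiquitin ligase subunit, Sh3bgr, Wisp2, Cpxm2, Lrrc10b and Gm11627. At a limit of 5% mitochondrial UMIs, Asb2 turned toward the Rgs5 side in GKO.

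**Figure D3:**
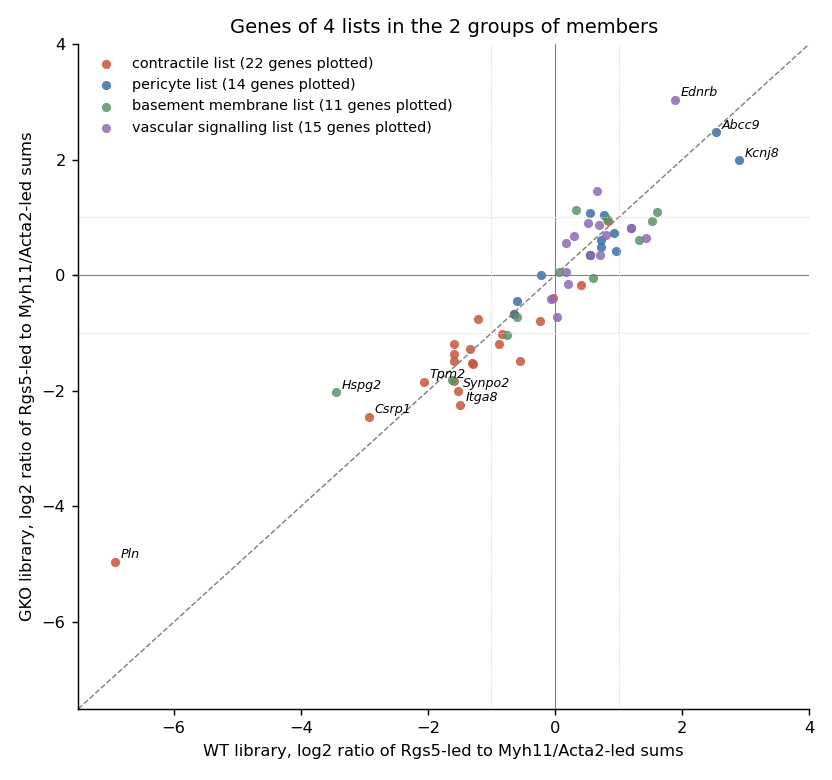
Log2 ratio of Rgs5-led to Myh11/Acta2-led sums in WT (horizontal) and GKO (vertical), mixed barcodes left out, with 1 point per gene of 4 lists, dotted lines at 2-fold and a dashed line of equal ratios. Contractile genes lie mostly at lower left with Pln farthest out, and Kcnj8, Abcc9 and Ednrb lie at upper right, while Cnn1 is not plotted because it had no UMI in Rgs5-led members.

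By list, 14 of 22 contractile genes were at least 2-fold higher in Myh11/Acta2-led members in both libraries and 0 were higher in Rgs5-led members. Mylk, the kinase that starts smooth muscle contraction, stood at 536 against 1287 CPM in WT and at 503 against 1331 CPM in GKO. Csrp1, Tpm2, Lmod1, Ppp1r14a and Synpo2 were also among the 14. Not all muscle genes lay on that side. Casq2 had log2 ratios of 0.88 in WT and 1.03 in GKO toward the Rgs5 side, and Cald1, caldesmon, had −0.03 and −0.28. Of 14 pericyte genes, 2 (Kcnj8 and Abcc9) were higher in Rgs5-led members and 0 in Myh11/Acta2-led members. Pdgfrb had ratios of 1.26 and 0.91, Cspg4 0.61 and 1.15, Notch3 0.52 and 0.46, and Rgs4, a relative of Rgs5, −0.18 and 0.16. Most pericyte genes were therefore found on both sides.

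Smaller groups had genes on both sides, and their counts stand beside 3.28% of all genes on the Rgs5 side and 4.4% on the muscle side, so that a single gene of a short list is near the background. Of 9 receptors, 3 (Ednrb, Agtr1a and Htr1b) were higher on the Rgs5 side and 2 on the muscle side, P2rx1 and Ramp1, the latter a partner of the receptor for calcitonin gene-related peptide at 49.1 against 207 CPM in WT and 37.0 against 214 CPM in GKO. Of 12 ion channel and calcium genes, 2 were higher on the Rgs5 side and 3 on the muscle side, Pln and the potassium channels Kcna5 and Kcnk3. Of 11 basement membrane genes, Col4a2 was higher on the Rgs5 side, at 722 against 229.8 CPM and 597 against 254 CPM. Hspg2, perlecan, and Col18a1 were higher on the muscle side. Of 16 transcription factors, Tcf21 was higher on the Rgs5 side and Myocd, myocardin, on the muscle side, at 33.8 against 97.0 CPM in WT and 16.7 against 61.4 CPM in GKO. Of 9 activated stellate genes, 1 (Thy1) was higher on the Rgs5 side and 5 (Col1a1, Fn1, Postn, Mfap5 and Col14a1) on the muscle side. In WT Myh11/Acta2-led members without the mixed barcodes, 7 barcodes with a Dcn UMI held 77 of 77 Mfap5 UMIs, while Postn had 61 UMIs in them and 8 in the other 49, Col1a1 134 and 35, and Col14a1 31 and 5. All 11 acinar enzyme genes with enough UMIs were higher on the muscle side when every member was counted, and 0 of 8 were without the mixed barcodes described below.

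The change along the range was gradual for some genes and abrupt for others. Members were placed in 4 bins by the share of Rgs5 in the sum of Rgs5, Acta2 and Myh11, holding 36, 23, 44 and 99 cells in WT and 60, 48, 84 and 166 in GKO, from lowest to highest share. Tagln went down over the bins from 14032 through 5254 and 3509 to 1389 CPM in WT and from 14220.1 through 8127 and 4704 to 1350.4 CPM in GKO. Pdgfrb went up from 220.3 through 406 and 552 to 753 CPM in WT and from 264 through 420.3 and 577 to 664 CPM in GKO. Abcc9 went up from 19.3 through 97.9 and 133 to 346 CPM in WT and from 26.9 through 56.2 and 119 to 336 CPM in GKO. These 3 genes changed over all 4 bins. Cnn1 was confined to the low end, at 352, 7.53, 0 and 0 CPM in WT and 323, 21.4, 0 and 0 CPM in GKO. Mylk dropped after the first bin in both, at 1689, 504, 531 and 539 CPM in WT and 1821, 795, 606 and 443 CPM in GKO. The bins share genes of the rule, so their order is a description.

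Before the libraries were compared, 12 members were found to carry marked amounts of another lineage's RNA. These mixed barcodes, identified after the data were seen, held at least 1% of UMIs in a list of acinar enzymes, at least 1% in a list of endocrine genes outside the rule, or at least 0.1% in lists of leukocyte and lymphocyte genes. There were 6 in each library. In GKO, 1 Myh11/Acta2-led barcode had 9816 of its 21765 UMIs (45.1%) in acinar genes. A second Myh11/Acta2-led barcode had 2766 of 19988 UMIs (13.8%) in endocrine genes, and another such barcode had 389 of 50414 UMIs (0.772%) in leukocyte genes. The highest values in WT were 7.13% acinar, 2.92% endocrine and 0.219% leukocyte. The median member had 0.0489% acinar UMIs in WT and 0.0425% in GKO, and 0 leukocyte UMIs. No doublet caller was run. Without these barcodes 196 WT members (140 Rgs5-led and 56 Myh11/Acta2-led) and 352 GKO members (247 and 104, with the tie) remained.

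The mixed barcodes carried the largest genotype ratios. With every member counted, 42 of 3427 genes (1.23%) were at least 2-fold higher in GKO and 12 (0.35%) at least 2-fold lower, with a median log2 ratio over all genes of 0.02. The largest ratios were those of Cd74, the invariant chain of MHC class II, and of the acinar genes Reg1, Pnlip, Cela2a, Cel, Ctrl, Rnase1, Sycn, 2210010C04Rik and Clps, from 1.85 to 3.59 on the log2 scale. Cd74 had 21 UMIs in WT and 467 in GKO, 432 of them in 1 cell. Reg1 had 48 and 635 UMIs, 577 of them in 1 cell, and Pnlip 113 and 1050, 929 of them in 1 cell. In each case a single GKO barcode held nearly the whole difference. Among the lower genes, Gcg had a ratio of −1.24, and 1000 of its 1535 WT UMIs came from 1 cell. Sst had a ratio of −1.44, with 238 of 509 WT UMIs in 1 cell. Pyy stood at −1.28. The 10 lowest ratios also held Zbtb16, Hist1h2ap, Rergl, Rgs2, Angptl4, Gm26532 and Col1a1.

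Without the mixed barcodes, 19 of 3428 genes (0.554%) were at least 2-fold higher in GKO and 11 (0.321%) at least 2-fold lower. Of the 19, 13 were among the 42 counted over every member. On the Rgs5 side of the division the corresponding counts without these barcodes were 105 of 3273 genes (3.21%) and on the muscle side 131 (4%), close to the counts with them. The genes named next were taken by the same rule of size after the mixed barcodes had been left out.

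Sdc1, Colec11 and Ccl11 were among the genes higher in GKO members. Sdc1, syndecan 1, a surface proteoglycan, stood at 37.4 CPM in WT and 131 CPM in GKO (log2 ratio 1.81, 1.31 to 2.35). It was found in 20 of 196 WT and 76 of 352 GKO members, against 1.46% and 1.42% of endothelial barcodes. Colec11, a lectin that starts the complement cascade, stood at 56.5 and 170 CPM (1.59, 1.18 to 2.03). Ccl11, eotaxin, which attracts eosinophils, stood at 155 and 385 CPM (1.31, 1.05 to 1.57). Its share of cells was 17.9% in WT and 29.5% in GKO members, 13.5% and 22.2% after thinning, and 0.365% and 0.474% in endothelial barcodes. Slc11a1, a metal transporter of lysosomes best known from macrophages, stood at 86.8 and 214 CPM (1.30, 0.96 to 1.66), in 38 WT and 143 GKO cells. C1q UMIs summed to 4.04 and 12.2 CPM in these members. Col14a1, a fibril-associated collagen, stood at 40.4 and 115 CPM, Bmp4, a growth factor, at 21.2 and 53.0 CPM, Nnmt at 33.3 and 74.6 CPM, and the matrix genes Prelp and Tnxb at 35.3 and 29.3 CPM in WT and at 78.5 and 64.6 CPM in GKO. Cxcl10, an interferon-induced chemokine, had 128 UMIs in GKO, but 122 of these came from 1 cell. Some of these calls depended on the limits of the rule. With every member counted, the ratios were 1.38 for Colec11, 1.15 for Ccl11 and 0.70 for Prelp. With other lineages each held under 0.1% of UMIs they were 0.82, 0.75 and 0.09, all under 2-fold, and Ccl11 had 0.86 at a limit of 5% mitochondrial UMIs.

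Fewer genes were lower in GKO members. Zbtb16, a zinc finger factor known to be induced by glucocorticoids, stood at 71.7 and 19.9 CPM (−1.85, −2.47 to −1.25). It was lower in every other kind of barcode too, with ratios of −1.84 in activated stellate, −2.41 in endothelial, −1.50 in macrophage and −2.11 in endocrine barcodes. The difference in Zbtb16 thus ran through the whole library and was not particular to the members. Angptl4, an inhibitor of lipoprotein lipase, stood at 105 and 48.1 CPM (−1.13), with a ratio of −3.14 in endothelial barcodes. Rergl stood at 79.7 and 28.7 CPM (−1.47), but its ratio was 0.89 at a limit of 5% mitochondrial UMIs. Col1a1 stood at 199 and 95.6 CPM (−1.06), and 100 of its 197 WT UMIs came from 1 cell. Hist1h2ap, a replication-dependent histone, stood at 73.7 and 21.5 CPM. The acinar genes Try4 and Cpb1 were also lower, at −1.15 and −1.05, with Gm26532, Fam65b and Gm10076. The mixed barcodes left out here were chosen in part by acinar UMIs. With every member counted, Try4 and Cpb1 were at least 2-fold higher in GKO, so these 2 values depend on that choice.

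Several of the higher genes had larger ratios in Myh11/Acta2-led members. Ccl11 had a log2 ratio of GKO to WT of 0.67 (0.38 to 0.97) in Rgs5-led members and 3.01 (2.37 to 3.72) in Myh11/Acta2-led members. Colec11 had 0.64 and 2.51, Sdc1 1.13 and 2.26, Slc11a1 0.72 and 2.11, Prelp 0.34 and 2.58, and Tnxb 0.59 and 2.13. Others were 2-fold apart on both sides, since Col14a1 had 2.07 (0.57 to 4.04) in Rgs5-led and 1.39 (0.87 to 1.948) in Myh11/Acta2-led members, Bmp4 had 1.30 (0.48 to 2.22) and 1.40 (0.12 to 2.96), and Sdc1 passed 2-fold in both as well. These rest on few UMIs, since Col14a1 had 4 in WT Rgs5-led members and Bmp4 had 6 in WT Myh11/Acta2-led members. In Myh11/Acta2-led members without the Dcn transcript described next, Bmp4 had 4 UMIs in WT and 1 in GKO. With every member counted, 20 genes were at least 2-fold higher in GKO within Rgs5-led members alone. Over all genes the median was 0.03 and 0.02. These intervals do not cover the spread between mice and preparations, so the difference between the sides was not tested. Zbtb16 ran the other way, with −2.21 in Rgs5-led and −1.17 in Myh11/Acta2-led members.

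Myh11/Acta2-led members were not of a single kind with respect to Dcn, which encodes decorin, a fibroblast proteoglycan held below 0.3% by the rule. At least 1 Dcn UMI was found in 7 of 56 Myh11/Acta2-led members in WT (12.5%, 5.18% to 24.1%) and in 34 of 104 in GKO (32.7%, 23.8% to 42.6%). After thinning the shares were 10.7% and 29.1%. In Rgs5-led members they were 7.14% and 7.29%. Endothelial barcodes, which should lack Dcn, had it in 1.82% in WT and 3.79% in GKO. The share was thus higher in GKO among Myh11/Acta2-led members, where the counting intervals overlap narrowly, and close in the Rgs5-led members. Those with Dcn had deeper medians, 8227 UMIs in WT and 7825.5 in GKO against 5517 and 5698, and lower median mitochondrial shares, 2.95% and 4.65% against 6.51% and 7.54%. The Dcn-holding members had at most 29 Dcn UMIs each. This division was made after the data were seen, and Dcn is a gene of the rule.

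Dcn-holding Myh11/Acta2-led members had a different profile in both libraries. Of 2731 genes with enough UMIs, 143 (5.24%) were at least 2-fold higher in them in both libraries and 233 (8.53%) were at least 2-fold lower. The higher genes were led by Ccl19, a chemokine, Mfap5, a microfibril protein, and Ccl11. Col3a1, a fibrillar collagen, stood at 4654 CPM with Dcn and 102 CPM without in WT, and at 2769 and 114 CPM in GKO. Postn, periostin, stood at 893 and 27.3 CPM in WT and at 642 and 12.1 CPM in GKO. The lower genes included contractile ones. Pln stood at 0 CPM with Dcn and 714 CPM without in WT, and at 40.8 and 935 CPM in GKO. Nrgn stood at 0 and 567 CPM in WT and at 25.98 and 608 CPM in GKO, and Pcp4l1, a calmodulin-binding peptide, at 14.6 and 1082 CPM in WT and 89.1 and 1398 CPM in GKO. Core muscle genes were present in both. Acta2 stood at 8562 CPM with Dcn and 15465 CPM without in WT, and at 10828 and 16032 CPM in GKO. Myh11 stood at 849 and 2888 CPM in WT and at 1333 and 2766 CPM in GKO. Tagln stood at 6938 and 12461 CPM in WT but at 11648 and 12975 CPM in GKO, so the 2 libraries differed for it. Cnn1 stood at 132 and 283 CPM in WT and at 208 and 196 CPM in GKO. Its WT value with Dcn rested on 9 UMIs in 3 cells. The counting intervals with Dcn overlapped, at 60.2 to 250 CPM in WT and 157 to 270 CPM in GKO.

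**Figure D4:**
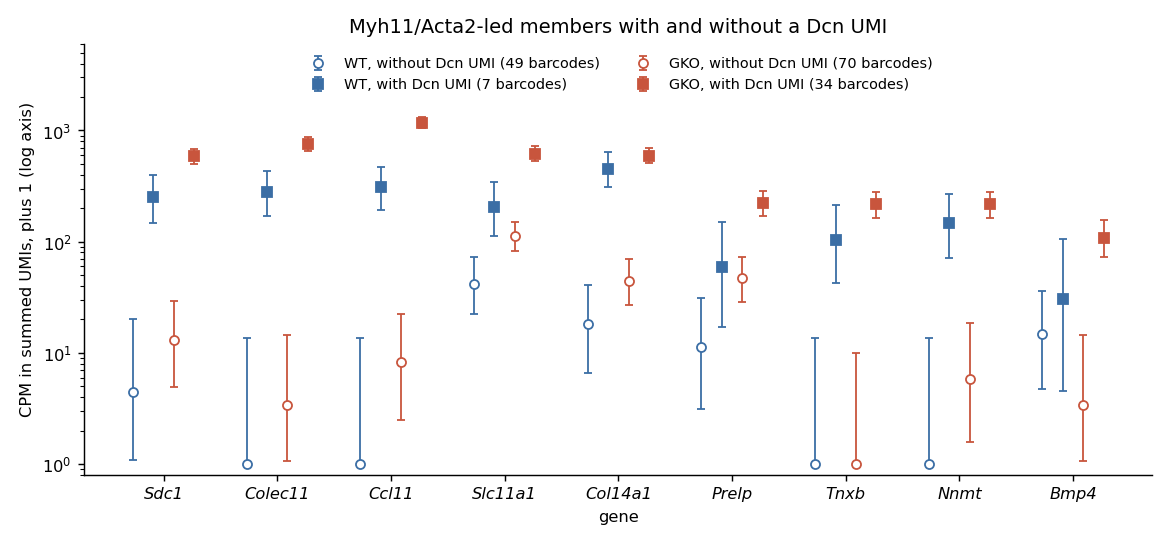
CPM plus 1 (vertical, log axis) of 9 genes in Myh11/Acta2-led members with (squares) and without (circles) a Dcn UMI, in WT (blue) and GKO (red), with bars for exact 95% counting intervals and mixed barcodes left out. For Sdc1, Colec11, Ccl11, Col14a1, Tnxb and Nnmt the squares lie far above the circles in both libraries. The GKO squares of Sdc1, Colec11, Ccl11, Slc11a1 and Prelp lie above the WT squares with intervals that do not overlap.

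Sdc1, Colec11 and Ccl11 were more abundant in Dcn-holding than in other Myh11/Acta2-led members. Sdc1 stood at 249 CPM with Dcn and 3.41 CPM without in WT, and at 587 and 12.1 CPM in GKO, where 30 of 34 Dcn-holding members had it. Colec11 stood at 278 and 0 CPM in WT and at 757 and 2.42 CPM in GKO. Ccl11 stood at 307 and 0 CPM in WT and at 1173 and 7.27 CPM in GKO. These transcripts were thus seldom found in Myh11/Acta2-led members without Dcn. Within the Dcn-holding members GKO was still higher, by a log2 ratio of 1.93 (1.29 to 2.64) for Ccl11, 1.24 (0.51 to 2.05) for Sdc1 and 1.45 (0.77 to 2.21) for Colec11, over 7 WT and 34 GKO barcodes. These barcodes differed between the libraries in other genes as well. Apoe stood at 3483.5 CPM in WT and 676 CPM in GKO, Col1a1 at 1961 and 486 CPM, and Rgs5 at 2078 and 4907 CPM. The part of such differences in the 3 ratios was not tested. Slc11a1 differed from Ccl11, Sdc1 and Colec11, with 205 and 41.0 CPM in WT and 616 and 111 CPM in GKO, and a ratio of 1.44 (0.504 to 2.496) without Dcn. Rgs5-led members gave another picture. Without Dcn, over 130 WT and 229 GKO barcodes, GKO was higher by 1.39 (0.98 to 1.83) for Ccl11, 1.86 (0.61 to 3.39) for Sdc1, 1.13 (0.54 to 1.78) for Slc11a1 and 2.10 (0.87 to 3.62) for Bmp4. With Dcn, over 10 and 18 barcodes, Ccl11 had −0.24 (−0.67 to 0.20), while Col14a1 had 1.93 (0.40 to 3.91), Sdc1 0.66 (−0.30 to 1.70), Colec11 0.57 (−0.006 to 1.18), Bmp4 0.38 (−0.82 to 1.70) and Slc11a1 0.23 (−0.42 to 0.90). Of the Ccl11 UMIs in GKO, 316 lay in Dcn-holding Myh11/Acta2-led members, 268 in Rgs5-led members without Dcn and 110 in those with it. In activated stellate barcodes, selected by Dcn and 2 other genes, the ratio of GKO to WT was 0.18 for Ccl11, 0.17 for Sdc1, 0.02 for Colec11 and 0.31 for Slc11a1. When Dcn-holding members were left out along with the mixed barcodes, 8 genes were at least 2-fold higher in GKO.

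Contractile and pericyte lists are given first among the gene lists. Without mixed barcodes, the 23 contractile genes with enough UMIs had 12 log2 ratios of GKO to WT above 0 and 11 below, with a median of 0.03 and a ratio of summed levels of 0.04 (0.01 to 0.07). The 14 pericyte genes had 10 above and 4 below, a median of 0.07 and a summed ratio of 0.11 (0.07 to 0.15). Over all 3428 genes the median was 0.02. None of either list was 2-fold apart. Rgs5 had a ratio of 0.16, Acta2 0.05, Tagln 0.19, Myh11 −0.08 and Pdgfrb −0.03. Kcnj8 stood at 70.7 and 117 CPM (0.72, 0.33 to 1.13), while Abcc9 stood at 190 and 179 CPM. Basement membrane genes had a summed ratio of 0.00 and vascular signalling genes of 0.05. For vasoactive and hormone receptors it was −0.15, with Ednrb at −0.25 and Ednra at −0.29.

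Chemokine and interferon lists had higher summed levels in GKO members. Of 9 chemokine and cytokine genes, 8 had ratios above 0, with a median of 0.84, and 4 were at least 2-fold higher (Ccl2, Ccl11, Cxcl10 and Bmp4), against 0.554% of all genes. Cxcl10 rested on the 1 cell named above, and with every member counted 3 genes were past 2-fold, without Ccl2. Their levels summed to 963 CPM in WT and to 1449 CPM in GKO (0.59, 0.48 to 0.70), with ratios of 0.37 in Rgs5-led and 1.02 in Myh11/Acta2-led members. In Myh11/Acta2-led members of GKO, Ccl11 stood at 1173 CPM with Dcn and 7.27 CPM without, Cxcl1 at 705 and 14.5 CPM, Ccl19 at 219 and 0 CPM and Ccl2 at 141 and 0 CPM. In those of WT, Ccl11 stood at 307 and 0 CPM, Cxcl1 at 571 and 6.83 CPM, Ccl19 at 293 and 0 CPM and Ccl2 at 278 and 3.41 CPM. With Dcn, Ccl19 and Ccl2 were thus lower in GKO than in WT, on 20 and 19 WT UMIs. The fibroblast genes of the rule had a summed ratio of 0.72 over all these members and 0.78 in the Myh11/Acta2-led ones, where the share with Dcn was 12.5% in WT and 32.7% in GKO, and their part in the chemokine ratio was not tested. The summed chemokine ratio was 0.66 in endothelial barcodes, but −0.28 in activated stellate and −0.84 in macrophage barcodes. Cxcl12, which attracts leukocytes and holds stem cells, stood at 104 and 187 CPM (0.84), and Il34, a macrophage growth factor, at 210.0 and 209 CPM. Of 14 interferon and MHC genes, 13 had ratios above 0, with a median of 0.36 and a summed ratio of 0.24 (0.19 to 0.28). Ifitm3, an antiviral membrane protein, stood at 1864 and 2293 CPM (0.30), H2-D1, an MHC class I chain, at 396 and 499 CPM (0.34), and B2m, its partner, at 366 and 469 CPM (0.36). Gbp2, an interferon-induced GTPase, was the single gene of the list past 2-fold, at 25.2 and 54.1 CPM. With every member counted 5 of 18 were, namely H2-Ab1, H2-Aa, H2-Eb1, Cd74 and Gbp2, and the summed ratio in Myh11/Acta2-led members was 0.55 in place of 0.24. The list was higher in GKO in activated stellate (0.31) and endothelial (0.41) barcodes too, but not in macrophage barcodes (−0.02).

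**Figure D5:**
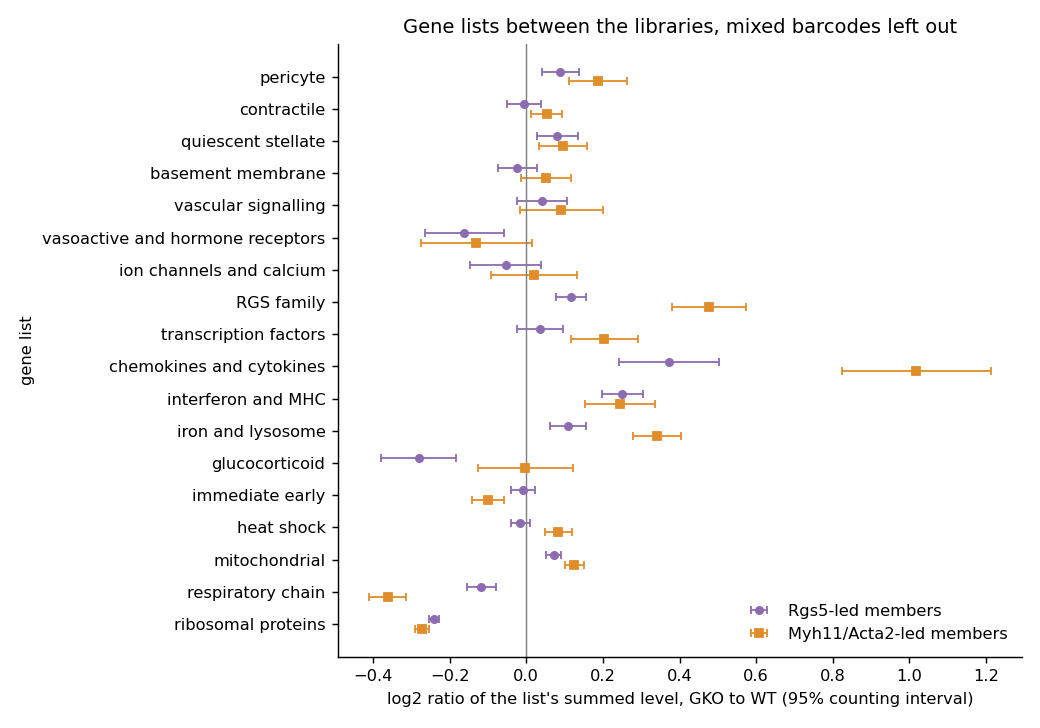
Log2 ratio of the summed level of 18 gene lists, GKO to WT (horizontal), in Rgs5-led (circles) and Myh11/Acta2-led (squares) members with exact 95% counting intervals, mixed barcodes left out. Chemokines and cytokines lie farthest right at 0.37 and 1.02, contractile and pericyte lists lie near 0, and respiratory chain and ribosomal protein lists lie left of 0.

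Ribosomal protein and respiratory chain genes were lower in GKO by small amounts shared across many members of each list. Of 83 ribosomal protein genes, 77 had ratios below 0, with a median of −0.22 and a summed ratio of −0.25 (−0.26 to −0.24). The summed ratio was −0.27 in activated stellate, −0.21 in endothelial and −0.06 in macrophage barcodes, so the members were not alone in it. Of 25 nuclear-encoded respiratory chain genes, 22 had ratios below 0, with a median of −0.34 and a summed ratio of −0.21, and −0.12 in Rgs5-led against −0.36 in Myh11/Acta2-led members. The list held Higd1b and, as its most abundant gene, Ndufa4l2, both genes of the rule. Its sums and their contrast between the sides were therefore tied in part to the selection. The summed ratio was −0.22 in activated stellate, −0.23 in endothelial and −0.07 in macrophage barcodes. Cox6c, a cytochrome c oxidase subunit, stood at 1141 and 831 CPM (−0.46). Transcripts encoded by mitochondrial DNA had a summed ratio of 0.10. Of 10 glucocorticoid-responsive genes, 5 were above 0 and 5 below, and 2 (Zbtb16 and Angptl4) were at least 2-fold lower, against 0.321% of all genes. Tsc22d3, an early target of the glucocorticoid receptor, stood at 286 and 183 CPM (−0.64), and Mt1, a metallothionein, at 299.8 and 161 CPM (−0.90). Klf9 stood at 459 and 482 CPM.

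The remaining lists differed little, except for cell cycle genes. Iron and lysosome genes had 11 of 13 ratios above 0 and a summed ratio of 0.19, with Fth1, ferritin heavy chain, at 3771 and 4621 CPM (0.29). Immediate early genes had 7 of 18 above 0 and a summed ratio of −0.05, with Fos at 4166 and 4125 CPM, and heat shock genes a summed ratio of 0.01. Transcription factors had a summed ratio of 0.09, quiescent stellate genes of 0.09, activated stellate genes of 0.10, ion channel and calcium genes of −0.02 and the RGS family of 0.15. The RGS family sum was mostly Rgs5, a gene of the rule, at 8583 of 9268 CPM in WT and 9620 of 10299 CPM in GKO. All 5 cell cycle genes with enough UMIs were below 0, with summed levels of 685 and 400.0 CPM (−0.78). The difference lay in the Myh11/Acta2-led members, at 855 and 58.6 CPM (−3.87), while Rgs5-led members had a ratio of 0.05. With the mixed barcodes counted, 2 of the 5 were above 0 and the sums were 654 and 582 CPM (−0.17). Without the mixed barcodes a Mki67 UMI was found in 7 WT and 3 GKO cells, 3 and 0 of them Myh11/Acta2-led. How many cells held the other UMIs of the list is not given here.

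RNA of other cell types is given for each list without the mixed barcodes, and hormones had the highest sum. The endothelial list summed to 677 CPM in WT and 724 CPM in GKO, with Esam as its most abundant gene and Cldn5 at 0 UMIs in both. The macrophage and leukocyte list summed to 14.1 and 14.4 CPM, led by Lyz2, with Ptprc at 0, and the lymphocyte list to 6.06 and 4.42 CPM, led by Jchain, with Cd79b, Ms4a1, Cd3e, Cd3d and Nkg7 at 0. The ductal list summed to 22.2 and 27.6 CPM, led by Tff2, with Sox9 at 0. The leukocyte and lymphocyte lists were also used to find the mixed barcodes, and with every member counted they summed to 39.3 and 156 CPM and to 16.3 and 64.98 CPM. The glial list summed to 15.1 and 22.7 CPM, led by Fabp7, with Gpr37l1, Sox10, Foxd3 and Gfap at 0, and the erythroid list to 2.02 and 1.10 CPM, led by Hba-a2. The mesothelial list summed to 14.1 and 34.3 CPM, led by Nkain4, with Msln, Lrrn4, Upk1b, Gpm6a, Wt1 and Muc16 at 0. The 3 fibroblast genes of the rule, nearly all Dcn, summed to 195 and 319.9 CPM (0.72, 0.48 to 0.96). Acinar genes summed to 1013 and 669 CPM (−0.60), endocrine genes outside the rule to 1328 and 1225 CPM and hormones to 10677 and 9722 CPM. The acinar and endocrine lists had also been used to find the mixed barcodes. With every member counted, acinar genes summed to 1687 and 5804 CPM (1.78) and these endocrine genes to 1827 and 2724 CPM (0.58). Ambient RNA had not been removed from these counts, and the part that it and the differing fibroblast level had in the genotype values was not tested.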

How the data were processed

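The deposited values are UMI counts that the authors made with Cell Ranger 5.0.1 on mm10, where the study's methods let reads be thinned to even out the libraries, and ambient RNA was not yet removed. Members and gene lists were chosen with earlier results of these data known. UMIs were summed per library and kind of barcode and scaled to 1000000 (CPM). Genes entered a comparison with at least 50 CPM in 1 of the sums compared and 20 UMIs, and "at least 2-fold" replaced a test, since there was 1 library per genotype. Named genes were the genes of the rule and markers, Ghrl and Ghsr, the 15 highest against other kinds, 12 in each direction between the sides, 10 in each direction between libraries, and the most abundant of each list. Genes named beside these because they passed 2-fold or were at 0, and those named without mixed barcodes, were chosen after their values were seen. Intervals are exact, Clopper-Pearson for shares and conditional Poisson for ratios, and were checked on simulated counts. Computation used NumPy 2.4.6, pandas 2.3.3 and SciPy 1.17.1 under Python 3.11.15, with figures from matplotlib 3.10.9 and TMM factors, as an alternative scaling, from edgeR 4.0.16. Promoters came from RefSeq (GRCm38.p6). Alternatives changed the limits of the rule, the weight of cells, the scaling and the boundary between the sides, and 2 of them, with the promoter search that allowed a changed base, were added after the data were seen. Values of some genes of the lists and of the named-gene rule are not reported here.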

Additional observations from a re-analysis of the deposited data

Results flagged for a closer look

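Among genes whose ratio of GKO to WT had opposite signs on the 2 sides of the division, 3 were flagged, and none was tested for the difference. Further genes had opposite signs too, among them Myh11 at 0.05 in Rgs5-led and −0.19 in Myh11/Acta2-led members. Mgp had log2 ratios of 0.45 in Rgs5-led and −0.53 in Myh11/Acta2-led members. Its negative value rested on 151 WT UMIs in 2 of 7 Dcn-holding barcodes, and in members without Dcn the ratios were 0.46 in Rgs5-led and 0.51 (0.28 to 0.74) in Myh11/Acta2-led members. Ins2, the main insulin gene with UMIs in every kind of barcode, had 0.065 and −0.36, and Ctrl, an acinar protease, had −0.86 and 2.40 with the mixed barcodes included, 542 of its GKO UMIs lying in 1 cell.

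Barcodes outside the quality limits met the rest of the rule 16 times in WT and 61 times in GKO, all of them above 10% mitochondrial UMIs. Of these, 12 in WT (75%, 47.6% to 92.7%) and 56 in GKO (91.8%, 81.9% to 97.3%) were Myh11/Acta2-led, against 29.2% and 30.2% of the members. Their median mitochondrial shares were 11.9% and 12.7%.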

How the results depend on the processing

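Limits of all these values are that each genotype had 1 library and that ambient RNA was left in. No paired analysis was possible because each group had 1 library. Members were 1.498% of kept WT and 2.84% of kept GKO barcodes at a limit of 5% mitochondrial UMIs, and 5.04% in GKO with other lineages each under 0.1%. Rgs5-led shares were then 80.9% in WT and 79.5% in GKO at 5%, 74.4% in GKO under 0.1%, 61.1% in GKO at 20%, and 60.4% and 57.5% with Tagln added to the muscle side. The 42 genes higher in GKO became 12 with every cell equal, 103 at 20 CPM, 78 at 5% mitochondrial UMIs, 20 within Rgs5-led members, 19 without mixed barcodes and 8 without those and Dcn-holding members. The 12 lower became 72 at 20 CPM and 48 at 5%. The 108 higher on the Rgs5 side became 166 at 20 CPM, 173 without members near the boundary and 168 without mixed and Dcn-holding members, and the 145 on the muscle side became 87 at 5%. At 5% mitochondrial UMIs, 29 named ratios between the sides moved and 18 stayed the same. Of the named ratios of GKO to WT, 16 moved and 17 stayed the same with every cell equal. With other lineages under 0.1%, 15 of them moved and 19 stayed the same. At 5% mitochondrial UMIs, 16 of them moved, 16 stayed the same and 2 turned sign. Of the summed list ratios of GKO to WT, 20 moved out of their counting interval at 5% and 15 stayed the same. With other lineages under 0.1%, 16 list ratios moved and 19 stayed the same. With every cell equal, 15 list ratios moved and 20 stayed the same. Signs turned for Gcg (0.19 with hormones under 2%, 0.17 at 5%), Try4 (−0.15 with every cell equal), Rergl (0.89 at 5%) and Asb2 between the sides in GKO (0.99 at 5%). Without mixed barcodes they turned for Cd74 (−0.17), Reg1 (−0.069), Pnlip (−0.059), Cela2a (−0.25), Cel (−0.10), Ctrl (−1.50), Rnase1 (−0.47), Sycn (−1.07), 2210010C04Rik (−0.61), Clps (−0.25), Gcg (0.16), Try4 (−1.15), Cpb1 (−1.05) and the lymphocyte (−0.45), acinar (−0.60) and endocrine (−0.12) lists, the last also at 5% mitochondrial UMIs (−0.075), and between values near 0 for the basement membrane, heat shock and rule endothelial lists. With other lineages under 0.1%, ratios of GKO to WT were 0.75 for Ccl11, 0.82 for Colec11 and 0.09 for Prelp. The low-count limit does not enter a gene's own ratio. Apart from the settings whose construction leaves out cells or genes, the cause was not tested.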
